A study of Mus musculus with 6 samples.

Results

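The expression of 10 genes of de novo lipogenesis, the pathway that turns surplus carbohydrate into fatty acid, was followed in mouse liver with and without *Fmo5*, which encodes flavin-containing monooxygenase 5. The 10 genes were chosen by symbol: *Srebf1* and *Mlxipl*, which encode the transcription factors SREBP1 and ChREBP, the enzyme genes *Acly*, *Acaca*, *Acacb*, *Fasn*, *Elovl6*, *Scd1* and *Me1*, and *Thrsp*. All 10 are among the 54446 genes listed by Ensembl identifier, all 10 passed the filter on low counts that 16734 genes passed, and all 10 were among the 7819 that also averaged at least 500 normalized counts over the 6 libraries. RNA-seq was performed on 1 library per animal from 3 wild-type (WT) and 3 *Fmo5*-/- males, aged 32 weeks, on a C57BL/6J background. Chow diet and a sampling window of several morning hours were common to both genotypes. The mice were kept in adjacent cages, and whether any cage held both genotypes is not stated. The deletion is carried in every tissue, so the liver is not the only organ that lacks the gene, and the sources used here do not state whether the WT mice were littermates.

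In liver, insulin activates *Srebf1* and glucose activates ChREBP, and both factors switch on the enzymes of the pathway. Citrate exported from mitochondria is cleaved to acetyl-CoA by ATP citrate lyase (*Acly*). Acetyl-CoA carboxylase makes malonyl-CoA from it, in the cytosol as the *Acaca* product and at the mitochondrial surface as the *Acacb* product, where malonyl-CoA restrains fatty acid entry for oxidation. Fatty acid synthase (*Fasn*) joins these units into palmitate with NADPH, part of which comes from cytosolic malic enzyme (*Me1*). ELOVL6 lengthens palmitate to stearate, and SCD1 desaturates both. *Thrsp* encodes a small protein induced by thyroid hormone, glucose and insulin that promotes lipogenesis.

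The genotypes were separated most widely in *Me1*, *Elovl6* and *Thrsp*, whose 3 *Fmo5*-/- mice all lay below the 3 WT mice. *Fasn* and *Scd1* also had lower means in *Fmo5*-/- mice but overlapped, and *Srebf1*, *Mlxipl* and *Acacb* had nearly equal means. None of the 10 passed the threshold for differential expression, an adjusted p under 0.05 (edgeR, quasi-likelihood test) together with a mean of at least 500 normalized counts, which 1.61% of the 7819 genes passed. At an unadjusted p under 0.05, 3 of the 10 were lower, as were 17.6% of the 7819 genes. The DESeq2 Wald test, with the same limits, called those 3 lower, against a background of 6.77% of genes called lower. EdgeR run without a filter on low counts called *Elovl6* and *Thrsp* lower but not *Me1*, and that fit called 9% of the 7820 genes averaging at least 500 counts lower. Genes whose genotypes did not overlap, with *Fmo5*-/- mice below, were likewise 3 of 10 against 21.9% of the 7819 genes. The means were lower in *Fmo5*-/- mice for 9 of the 10 genes, and for 64% of the 7819. The median log2 fold change, *Fmo5*-/- over WT, was -0.35 over the 10 genes, -0.06 over the 7819 and 0.0058 over all 16734 tested genes.

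Between 44886286 and 52338675 reads per library were counted on genes. Reads outside genes were 8.63% and 8.28% of reads in *Fmo5*-/- mice 2 and 3 and 6.86% to 7.02% in the other 4. The scaling factor separated the genotypes, at 0.956 to 0.97 in WT and 1.00 to 1.08 in *Fmo5*-/- mice. The share of unmapped reads did so too, at 9.72% to 10.1% in WT and 9.1% to 9.2% in *Fmo5*-/- mice. Reads mapped to several places made up 11.8% to 13.1% in WT and 10.4% to 11.5% in *Fmo5*-/- mice, again without overlap. Measures that separate in this way cannot be told apart from genotype. The part of these differences in the values below was not tested. *Fmo5* itself had 30239.7 to 39808 normalized counts in WT mice and 1071 to 1194 in *Fmo5*-/- mice. None of 8 hepatocyte markers was called by edgeR or by DESeq2, 0 had an unadjusted p under 0.05, and the summed count of the 8 ranged from 5103950 to 6740610 in WT and from 5248900 to 6586210 in *Fmo5*-/- mice. Most of that sum was *Alb*, with 4085760 to 5404120 normalized counts in WT and 4099780 to 5381170 in *Fmo5*-/- mice. All 8 Kupffer cell markers had higher means in *Fmo5*-/- mice, with a summed count of 9045 to 10777 in WT and 14133 to 25980 in *Fmo5*-/- mice. Of the 6 that averaged at least 500 counts, edgeR called 1 higher, *Clec4f* (0.55% of the 7819 genes were), and DESeq2 called 5 higher (2.77% of genes). All 7 lymphocyte markers also had higher means, with a summed count of 694 to 989 in WT and 1027 to 2245 in *Fmo5*-/- mice. EdgeR called none of them, and DESeq2 called 1 higher, *Ptprc*, the only one averaging at least 500 counts. Much of the sum was *Ptprc* itself, with 473 to 630 normalized counts in WT and 670 to 1401 in *Fmo5*-/- mice. In bulk liver, fewer cells of a type and less RNA per cell cannot be told apart, and the part of the cell mixture in the values below was not tested.

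The sequences before the start sites of the 4 genes with the largest fold changes are shown because these genes had the largest differences of the 10, although none was called. They are RefSeq sequences of GRCm38.p6, the build of the files, read on the strand of the gene from 250 bases before the RefSeq start, and bases that lie inside the gene as GENCODE vM21 draws it are left out. Capitals mark CCAAT and GGGCGG on either strand, where ATTGG and CCGCCC are their reverse complements, and no match lies in the bases printed for *Elovl6* and *Thrsp*. The *Me1* sequence is chr9:86695954-86696164 on the minus strand, *Elovl6* is chr3:129532136-129532354 on the plus strand, *Thrsp* is chr7:97417731-97417800 on the minus strand, and *Fasn* is chr11:120824548-120824797 on the minus strand.
Me1: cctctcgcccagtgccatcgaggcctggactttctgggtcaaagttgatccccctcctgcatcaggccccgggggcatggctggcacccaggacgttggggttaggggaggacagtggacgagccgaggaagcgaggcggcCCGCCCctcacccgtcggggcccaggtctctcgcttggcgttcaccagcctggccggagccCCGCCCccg
Elovl6: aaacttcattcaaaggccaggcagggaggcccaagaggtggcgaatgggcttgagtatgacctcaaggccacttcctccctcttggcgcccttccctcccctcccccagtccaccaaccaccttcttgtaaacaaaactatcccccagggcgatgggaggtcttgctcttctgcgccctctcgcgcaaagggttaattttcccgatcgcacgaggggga
Thrsp: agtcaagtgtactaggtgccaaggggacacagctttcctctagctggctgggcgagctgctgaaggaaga
Fasn: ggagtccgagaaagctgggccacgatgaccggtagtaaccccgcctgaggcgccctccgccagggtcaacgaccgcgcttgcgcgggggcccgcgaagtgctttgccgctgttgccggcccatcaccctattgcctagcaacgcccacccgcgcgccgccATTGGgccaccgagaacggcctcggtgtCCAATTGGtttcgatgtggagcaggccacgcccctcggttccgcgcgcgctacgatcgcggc

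A window was at hand for 9 of the 10 genes, *Scd1* being the exception, and the letters were searched on both strands of all 250 bases. RefSeq gives 3 windows for *Srebf1* and 2 each for *Mlxipl* and *Me1*, and only the window nearest the 5′ end of the GENCODE gene was searched, so matches hold for that start alone. The windows of *Acaca* and *Acacb* start within the annotated genes, and that of *Thrsp* lies for 180 of its bases inside the longer GENCODE gene. CCAAT was present in 5 of the 9 windows (*Srebf1*, *Mlxipl*, *Fasn*, *Acacb* and *Thrsp*), compared with 33.8% of 32851 promoter windows. It occurred 3 times in *Fasn*, with 2 of the matches overlapping, and 2 times in *Thrsp*. GGGCGG was present in 3 windows (*Mlxipl*, *Acly* and *Me1*), compared with 32.7% of all windows. The E-box CACGTG was found in *Mlxipl* alone, and in 6.02% of all windows, while the looser form CANNTG, which includes it, was found in 6 of the 9 and in 66.2% of all windows. The letters CACCCCAC, of a sterol regulatory element core, and the spaced pattern of a carbohydrate response element were in none of the 9, and in 2.58% and 0.28% of all windows. *Elovl6* held none of the patterns searched. These are matches of letters in short windows and say nothing of binding.

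*Srebf1* (ENSMUSG00000020538.15, chr11:60199089-60222581, minus strand) had 21879.5, 14005 and 19467 normalized counts in WT and 19010.3, 13327 and 20941 in *Fmo5*-/- mice. The genotypes covered nearly the same range, with the second mouse of each the lowest. Its log2 fold change was -0.06 with a 95% interval from -0.54 to 0.43 (standard error 0.21, edgeR adjusted p = 0.905). The counts are summed over the gene, so the isoforms SREBP-1a and SREBP-1c were not separated, and 109 of its exonic bases are shared with *Rai1* on the other strand in libraries counted without strand.

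*Mlxipl* (ENSMUSG00000005373.13, chr5:135089890-135138382, plus strand) had 32066, 38645 and 37712 normalized counts in WT and 30114, 33280.3 and 40193 in *Fmo5*-/- mice. The *Fmo5*-/- mice spanned the whole WT range. The log2 fold change of -0.07 had the narrowest interval of the 10 genes, from -0.35 to 0.22 (edgeR adjusted p = 0.813). Neither the proteins nor their processing and nuclear entry were measured.

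*Acly* (ENSMUSG00000020917.17, chr11:100476353-100528000, minus strand) had 22868, 23265 and 34636 normalized counts in WT mice. In *Fmo5*-/- mice it had 30468, 19037 and 23282. A single mouse of each genotype stood above the other two, and the ranges overlapped. The mean was 26923 ± 6683 in WT and 24262 ± 5778 in *Fmo5*-/- mice (SD, n = 3 each), and the log2 fold change was -0.15 with an interval from -0.65 to 0.35.

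*Acaca* (ENSMUSG00000020532.18, chr11:84129672-84401651, plus strand) had 3475, 2981 and 3881 normalized counts in WT and 3491, 2261 and 2785 in *Fmo5*-/- mice. Its lower 2 *Fmo5*-/- mice lay below every WT mouse and the first lay within the WT range. Its log2 fold change was -0.28, with an interval from -0.65 to 0.10 (edgeR adjusted p = 0.367).

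*Acacb* (ENSMUSG00000042010.16, chr5:114146535-114250761, plus strand) had 5714, 7203 and 8231 normalized counts in WT and 9586, 5337 and 6908 in *Fmo5*-/- mice. The highest and the lowest of the 6 values were both in *Fmo5*-/- mice. It was the only one of the 10 with a higher mean in these mice, by a log2 fold change of 0.05 with an interval from -0.48 to 0.58. The counts of *Acacb* per count of *Acaca* were 2.92, 4.28 and 3.76 in WT and 4.87, 4.18 and 4.4 in *Fmo5*-/- mice, and the ranges overlapped. The exact two-sided permutation p was 0.2 (adjusted p = 0.4 over 6 ratios compared), where 3 mice against 3 cannot go below 0.1.

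*Fasn* (ENSMUSG00000025153.9, chr11:120805846-120824547, minus strand) had 56868, 54967 and 84656 normalized counts in WT mice. The *Fmo5*-/- mice had 56248, 26022 and 59853. The third WT mouse was far above the rest and the second *Fmo5*-/- mouse far below, while the other 4 mice lay close together. The mean was 65497 ± 16619.6 in WT and 47374 ± 18579 in *Fmo5*-/- mice (SD, n = 3 each). The log2 fold change was -0.47, and its interval, from -1.32 to 0.38, was the widest of the 10 (edgeR adjusted p = 0.497). Without the second *Fmo5*-/- mouse the log2 fold change of *Fasn* was -0.17, and without the third WT mouse it was -0.23.

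*Scd1* (ENSMUSG00000037071.2, chr19:44394455-44407879, minus strand) was the most abundant of the 10 messages. It had 612493, 455338 and 596734 normalized counts in WT and 616963, 249780.0 and 370534 in *Fmo5*-/- mice. The first *Fmo5*-/- mouse was the highest of all 6 and the other two were below every WT mouse. Its fitted log2 fold change was -0.43, with an interval from -1.20 to 0.35 (edgeR adjusted p = 0.499). It was -0.17 without the second *Fmo5*-/- mouse and -0.84 without the first.

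*Elovl6* (ENSMUSG00000041220.10, chr3:129532355-129638495, plus strand) had 5666, 6114 and 6528 normalized counts in WT and 4961, 2904 and 3672 in *Fmo5*-/- mice. The genotypes did not overlap, and the WT mice were close to one another. The mean was 6103 ± 431 in WT and 3846 ± 1039.7 in *Fmo5*-/- mice (SD, n = 3 each), which is -37.0% in relative terms. EdgeR estimated a log2 fold change of -0.67 with an interval from -1.08 to -0.25 (standard error 0.18, adjusted p = 0.0908). DESeq2 gave an adjusted p of 0.00304. *Elovl6* lies 31.9 Mb from *Fmo5* on chromosome 3, where 5.53% of genes averaging at least 500 counts were called by edgeR, compared with 1.41% on the other chromosomes. The part of DNA linked to the deletion in this value was not tested.

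*Me1* (ENSMUSG00000032418.15, chr9:86581371-86695953, minus strand) had 12408, 8338 and 11622 normalized counts in WT and 5856, 2580.1 and 4699 in *Fmo5*-/- mice. The highest *Fmo5*-/- mouse lay below the lowest WT mouse. The mean was 10789 ± 2159 in WT and 4378 ± 1661 in *Fmo5*-/- mice (SD, n = 3 each), or -59.4%, the largest difference of the 10 genes. EdgeR estimated a log2 fold change of -1.30 with an interval from -2.09 to -0.51 (standard error 0.32, adjusted p = 0.0961). DESeq2 gave an adjusted p of 0.00629.

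*Thrsp* (ENSMUSG00000035686.8, chr7:97412938-97417730, minus strand) had 19116, 22803 and 25949.6 normalized counts in WT and 14295, 12738 and 18029 in *Fmo5*-/- mice. The ranges were adjacent but did not overlap. The mean was 22623 ± 3420.1 in WT and 15021 ± 2719 in *Fmo5*-/- mice (SD, n = 3 each), or -33.6%. EdgeR estimated a log2 fold change of -0.59 with an interval from -0.94 to -0.24 (standard error 0.15, adjusted p = 0.0807). DESeq2 gave an adjusted p of 0.00383. Without the third *Fmo5*-/- mouse *Thrsp* was called, with a log2 fold change of -0.75 (edgeR adjusted p = 0.0296). In all 3 of *Me1*, *Elovl6* and *Thrsp* the edgeR adjusted p was under 0.1, as it was in this direction for 5.74% of the 7819 genes, which include those under 0.05.

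**Figure D1:**
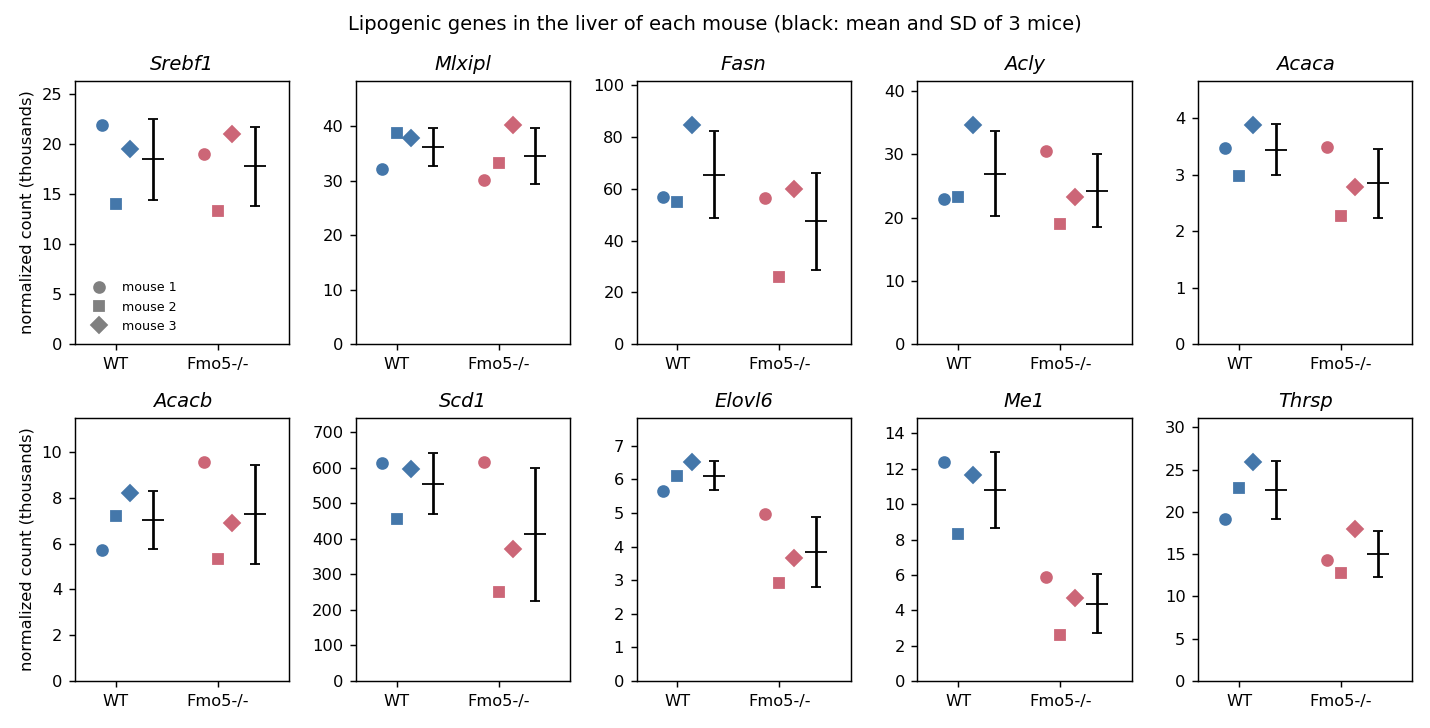
Normalized counts (y axis) of the 10 lipogenic genes in each WT (blue) and *Fmo5*-/- (red) mouse, with marker shapes for mice 1 to 3 of each genotype and the mean and SD of 3 mice in black. The genotypes are separate in *Elovl6*, *Me1* and *Thrsp* and overlap in the other 7 panels.

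**Figure D2:**
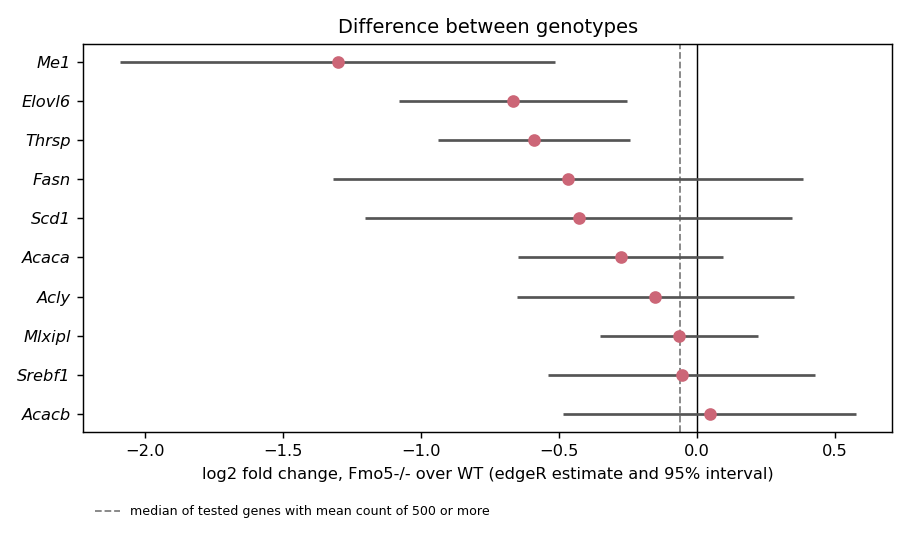
Log2 fold change, *Fmo5*-/- over WT, of the 10 genes (points) with 95% intervals from edgeR (lines), beside the median of the 7819 more abundant genes (dashed, -0.06). The intervals of *Me1*, *Elovl6* and *Thrsp* end below 0, and the other 7 include it.

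Per length of exonic sequence, the order of the levels in WT mice was led by *Scd1*, with 2324 ± 363 RPKM (reads scaled to exon length and to library size, mean and SD, n = 3). *Thrsp* followed with 212 ± 32 RPKM, then *Mlxipl* with 134 ± 13.2, *Fasn* with 123 ± 31.1 and *Acly* with 105 ± 25.9. The ranges of *Mlxipl* and *Fasn*, and of *Fasn* and *Acly*, overlapped, so their order is not resolved. *Srebf1* (67.1 ± 14.7 RPKM) and *Me1* (57.5 ± 11.5) also overlapped. *Elovl6* (19.4 ± 1.37 RPKM), *Acacb* (15.0 ± 2.69) and *Acaca* (4.14 ± 0.541) were the lowest and their ranges were separate. In *Fmo5*-/- mice *Scd1* again led, with 1728 ± 784 RPKM, and *Acaca* was again last, with 3.42 ± 0.741. *Me1* had 23.3 ± 8.85 RPKM there, *Elovl6* 12.3 ± 3.31 and *Acacb* 15.5 ± 4.57, and the ranges of the latter 2 overlapped, so their order there is not resolved.

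The 10 genes varied between mice of 1 genotype more than most genes. The within-genotype SD of log2 counts was 0.53 for *Fasn*, 0.49 for *Scd1* and 0.48 for *Me1*, compared with a median of 0.12 over the 7819 genes. These values lay at the 98.5, 98.3 and 98.2 percentiles of the 7819 genes, and the steadiest of the 10, *Mlxipl*, lay at the 80.3 percentile with an SD of 0.18.

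Most of the 10 genes moved together from mouse to mouse. The second *Fmo5*-/- mouse had the lowest value of its genotype in 9 of the 10 genes, *Mlxipl* being the exception, compared with 48.4% of the 7819 genes. The third WT mouse was the highest of its genotype in 6 of the 10, compared with 27.6% of the 7819 genes. Without the second *Fmo5*-/- mouse the median log2 fold change of the 10 genes was -0.15, that of *Me1* was -1.03 (edgeR adjusted p = 0.081), that of *Elovl6* was -0.50 (edgeR adjusted p = 0.156) and that of *Thrsp* was -0.48 (edgeR adjusted p = 0.211).

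As a description over the 6 libraries, the deviation of each gene from its genotype mean was correlated with the mean standardized deviation of the other 9. Pearson's r was 0.97 for *Fasn*, 0.88 for *Acaca*, 0.85 for *Acly* and *Me1*, 0.84 for *Elovl6*, 0.82 for *Acacb* and 0.79 for *Scd1*. It was lower for *Srebf1* (0.63) and *Thrsp* (0.57) and near 0 for *Mlxipl* (-0.04). Of 7809 other genes with a mean of 500 or more, 157 (2.01%) had an r of 0.9 or more with the mean of all 10, and 427 (5.47%) had an r of 0.8 or more. The 5 most alike were *Bivm* (r = 0.997), *Cpne2* (0.995), *Crnkl1* (0.994), *Rab6a* (0.991) and *Naa40* (0.988), and none of the 5 was called between genotypes. The 6 points share libraries and scaling, and 2 of their degrees of freedom were spent on the genotype means.

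**Figure D3:**
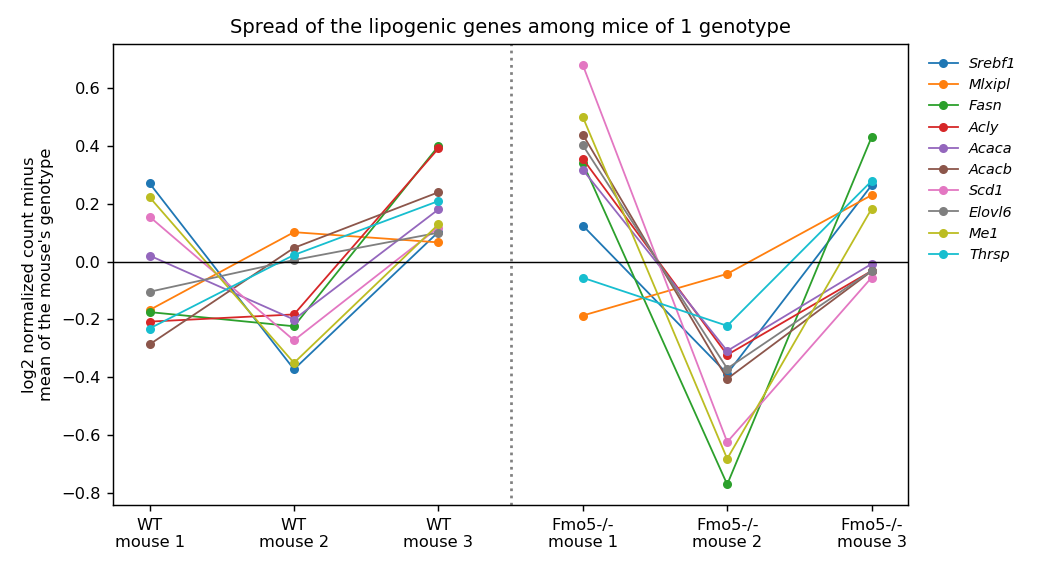
Log2 normalized count of each of the 10 genes (coloured lines) in each mouse, minus the mean of that mouse's genotype (y axis), with WT mice to the left of the dotted line and *Fmo5*-/- mice to the right. The lines of 9 genes, all but *Mlxipl*, are at their lowest for the genotype in the second *Fmo5*-/- mouse, and the lines lie above 0 for all 10 genes in the third WT mouse.

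Counts were also taken as ratios within each mouse. An exact two-sided permutation test was run on each of 6 ratios, but with 3 mice against 3 it cannot go below 0.1, and the adjusted p were 0.3 to 0.9. The ratios of *Me1*, chosen because its difference was the largest of the 10, are therefore read as a description. *Me1* per count of *Fasn* was 0.621, 0.432 and 0.391 in WT and 0.296, 0.282 and 0.223 in *Fmo5*-/- mice. *Me1* per count of *Idh1*, which encodes another cytosolic source of NADPH, was 0.256, 0.184 and 0.264 in WT and 0.164, 0.088 and 0.137 in *Fmo5*-/- mice. The genotypes did not overlap in either ratio, and the other members were not compared with *Me1* in this way. The ratios of *Scd1*, *Elovl6* and *Thrsp* to *Fasn* overlapped. *Elovl6* per count of *Fasn* had a mean of 0.163 ± 0.0295 in WT and 0.148 ± 0.0428 in *Fmo5*-/- mice (SD, n = 3 each), and *Thrsp* per count of *Fasn* 1.76 ± 0.28 and 1.74 ± 0.623.

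Genes around the pathway were taken in 8 lists, which together hold 105 tested genes. Of these, 83 averaged at least 500 normalized counts and could be called, and the counts below are over such genes. EdgeR called 2 of the 83 lower (1.06% of the 7819 genes were) and 0 higher, and DESeq2 called 10 lower (6.77% of genes). The *Fmo5*-/- mice lay wholly below the WT mice in 24 of the 83 (21.9% of the 7819), 66 had lower means (64%), and 20 were lower and 1 higher at an unadjusted p under 0.05 (17.6% and 7.62%). Their median log2 fold change was -0.19, compared with -0.06 over the 7819 genes. Where a list below has no gene called by edgeR, this holds with the filter on low counts, and without it each such list had 2 to 5 called, in a fit that called 12.5% of the 7820 genes averaging at least 500 counts.

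Of 15 regulators of SREBP and ChREBP, 13 averaged at least 500 counts, and edgeR and DESeq2 called none of them. At an unadjusted p under 0.05, edgeR gave 2 lower and 1 higher of the 13, close to the 17.6% and 7.62% of the 7819 genes. Their median log2 fold change was -0.05. The largest differences belonged to *Insig1*, a brake on SREBP processing that is itself an SREBP target (log2 fold change -0.34, edgeR adjusted p = 0.393), and *Usf2*, an E-box binding factor (-0.31, edgeR adjusted p = 0.108). *Insig1* had 28124, 22795 and 32557 normalized counts in WT and 26162, 15663 and 24329 in *Fmo5*-/- mice, and the genotypes overlapped. *Usf2* did not overlap. The 1 higher gene was *Nr1h2*, with 2021 to 2342 normalized counts in WT and 2492 to 2801 in *Fmo5*-/- mice (0.27, edgeR adjusted p = 0.124).

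Of 16 other targets of ChREBP and SREBP-1c, 12 averaged at least 500 counts. Of the 12, 11 had lower means in *Fmo5*-/- mice (64% of the 7819 genes did) and the median log2 fold change was -0.52. In 6 of the 12 the *Fmo5*-/- mice were all below the WT mice, compared with 21.9% of the 7819 genes. EdgeR called none of the 12 (1 without the third WT mouse and 3 without the third *Fmo5*-/- mouse, in fits that called 1.31% and 3.32% of genes averaging at least 500 counts), 5 were lower at an unadjusted p under 0.05 (17.6% of the 7819), and DESeq2 called 3 lower (6.77% of genes). *Gpam*, which encodes the mitochondrial enzyme that starts glycerolipid synthesis, had 10673, 7518 and 11487 normalized counts in WT and 7418, 5195 and 6599 in *Fmo5*-/- mice (log2 fold change -0.63, edgeR adjusted p = 0.108, DESeq2 adjusted p = 0.00666). *Rgs16*, a regulator of G protein signalling, had the largest fold change of those with a mean of 500 or more, but its WT mice ranged from 907 to 2329.9 (edgeR adjusted p = 0.359). The other 2 genes called by DESeq2, named after their values were seen, were *Gpd1* (log2 fold change -0.61, edgeR adjusted p = 0.0554), which makes glycerol 3-phosphate, and *Slc2a2* (-0.55, edgeR adjusted p = 0.099), the hepatocyte glucose transporter. *Fgf21* and *Cidec*, also named for their values, had edgeR adjusted p of 0.0494 and 0.0228 but mean counts under 500, so they were not called. *Fgf21*, a liver hormone, had 102 to 157 normalized counts in WT and 14.7 to 42.9 in *Fmo5*-/- mice. *Cidec*, a lipid droplet protein, had 299 to 492 in WT and 138 to 181 in *Fmo5*-/- mice. *Cidec* is also abundant in adipocytes. Of 7 adipocyte markers, the 4 defining ones, *Adipoq*, *Retn*, *Lep* and *Plin1*, had too few counts to be tested and summed to 4.09 to 115 normalized counts in WT and 2.95 to 11.9 in *Fmo5*-/- mice. Of the other 3, *Cfd* had 452 to 953 normalized counts in WT and 40.3 to 129 in *Fmo5*-/- mice (log2 fold change -3.21, edgeR adjusted p = 0.0633), *Car3* had a lower mean without overlap (-0.24, edgeR adjusted p = 0.152, called by DESeq2), and *Adrb3* overlapped with a higher mean (0.35, edgeR adjusted p = 0.193). The part of fat tissue in these values was not tested.

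Genes that supply citrate, acetyl-CoA and NADPH numbered 14, of which 10 averaged at least 500 counts and 9 of these had lower means. EdgeR called none of the 10, with 3 lower at an unadjusted p under 0.05 (17.6% of the 7819 genes), and DESeq2 called 2 lower (6.77% of genes). These were *Idh1*, the cytosolic isocitrate dehydrogenase, with 34952, 32615 and 31666 normalized counts in WT and 25721, 21122 and 24687 in *Fmo5*-/- mice (log2 fold change -0.47, edgeR adjusted p = 0.0564), and *Aco1*, the cytosolic aconitase (-0.32, edgeR adjusted p = 0.1). Neither overlapped between the genotypes. *Me2*, with a mean under 500, went the other way (log2 fold change 0.72, edgeR adjusted p = 0.134). It had 85.8 to 103.8 normalized counts in WT and 104.1 to 196 in *Fmo5*-/- mice.

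Of 11 genes of malonyl-CoA use and of AMPK, the kinase that inhibits acetyl-CoA carboxylase, 9 averaged at least 500 counts. EdgeR called none of the 9, with 2 lower at an unadjusted p under 0.05 (17.6% of the 7819 genes), and DESeq2 called *Oxsm* alone. This gene of mitochondrial fatty acid synthesis had 2179.8 to 2262 normalized counts in WT and 1669 to 1831 in *Fmo5*-/- mice (log2 fold change -0.35, edgeR adjusted p = 0.0554). *Prkaa2*, a catalytic subunit of AMPK, overlapped (-0.36, edgeR adjusted p = 0.178).

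Of 17 further genes of elongation and desaturation, 13 averaged at least 500 counts, and 11 of these had lower means, with a median log2 fold change of -0.14. EdgeR called none of the 13, with 2 lower at an unadjusted p under 0.05 (17.6% of the 7819 genes), and DESeq2 called *Hsd17b12* lower. It encodes the ketoacyl-CoA reductase that follows ELOVL6 in each round of elongation, and had 13338, 13098 and 11988 normalized counts in WT and 10444, 10535 and 9711 in *Fmo5*-/- mice (log2 fold change -0.32, edgeR adjusted p = 0.0818). *Elovl2*, for polyunsaturated fatty acids, overlapped (-0.33, edgeR adjusted p = 0.241). *Scd2*, with a mean under 500, had a higher mean in *Fmo5*-/- mice, also with overlap (0.45, edgeR adjusted p = 0.2).

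Lipogenic genes follow feeding and the time of day, so genes of both were examined. Of 12 genes induced by fasting, 10 averaged at least 500 counts. EdgeR called none of the 10, with 2 lower at an unadjusted p under 0.05, and DESeq2 called 1 lower, shares near those of all genes (17.6% and 6.77%). *Fgf21*, described above, is 1 of the other 2. Among the 10, the 2 with the largest fold changes, *Cyp4a14* (-1.07, edgeR adjusted p = 0.607) and *Cyp4a10* (-0.74, edgeR adjusted p = 0.362), were high in the first WT mouse, with 19769 and 15179 normalized counts, and both overlapped between genotypes. *Igfbp1* and *Pck1*, named for their values, varied widely within both genotypes. *Igfbp1* had 2116, 738 and 2708 normalized counts in WT and 4458, 1463 and 725 in *Fmo5*-/- mice. *Pck1* had 25035, 45975 and 31626 in WT and 68732, 40955 and 24706 in *Fmo5*-/- mice. Of 16 clock genes, 11 averaged at least 500 counts, of which edgeR and DESeq2 called none (edgeR called 1 without the second WT mouse, where 0.658% of genes averaging at least 500 counts were called), and edgeR gave 2 lower at an unadjusted p under 0.05 (17.6% of the 7819 genes). *Dbp*, a clock output, had 557, 1772 and 330.2 normalized counts in WT and 385, 324 and 818 in *Fmo5*-/- mice, and *Cry1*, a clock repressor, 899, 349 and 840.4 and 556, 389 and 447. In both genes the second WT mouse stood apart from the other WT mice. It also did in other clock genes, such as *Arntl* (497, against 1299 and 1347) and *Nr1d1* (6260, against 4730 and 3801). In *Clock* it lay between the other WT mice. The part of feeding and sampling time in the lipogenic genes was not tested.

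*Me1* and *Thrsp* are textbook targets of thyroid hormone in liver, so genes of that axis formed the eighth list. Of 9 genes, 8 were tested and 7 averaged at least 500 counts. EdgeR called 2 of the 7, both lower, compared with 1.06% of the 7819 genes, and DESeq2 called the same number lower (6.77% of genes). The list was chosen with earlier results of these data known, so these shares are a description only. *Dio1*, the deiodinase that activates thyroxine and is itself induced by thyroid hormone, had 6165, 6536 and 5234 normalized counts in WT and 3342, 4246 and 3465 in *Fmo5*-/- mice (log2 fold change -0.70 with a standard error of 0.12, edgeR adjusted p = 0.0356). *Gpd2*, the mitochondrial glycerol 3-phosphate dehydrogenase, had 2070.4, 2150.3 and 2057 in WT and 1660.0, 1386 and 1415 in *Fmo5*-/- mice (-0.49, standard error 0.09, edgeR adjusted p = 0.043). Neither overlapped. *Hr*, a thyroid hormone target of low abundance, had 90.4 to 179 normalized counts in WT and 27.0 to 29.4 in *Fmo5*-/- mice (-2.24, edgeR adjusted p = 0.00977), with a mean under 500. The receptors were not called: *Thra* and *Thrb* had log2 fold changes of 0.15 and -0.16. *Klf9*, another target, had 3482, 5720 and 3612 in WT and 3491, 3795 and 5102 in *Fmo5*-/- mice, with overlap. With a mouse left out, *Dio1* remained called in 3 of 6 fits and *Gpd2* in 1 of 6, with edgeR adjusted p of up to 0.121 and 0.123, and with genes under 500 counts removed ahead of the fit neither was called.

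**Figure D4:**
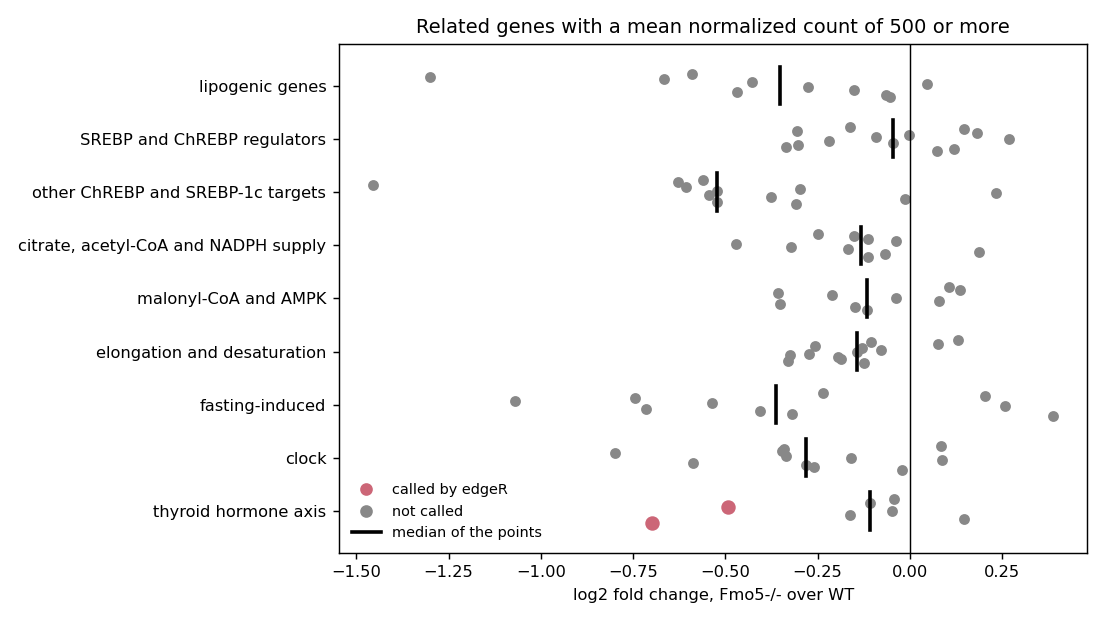
Log2 fold change, *Fmo5*-/- over WT (x axis), of the 10 lipogenic genes and of genes averaging at least 500 normalized counts in 8 related lists (rows), with black bars at the median of the points in a row. Red points are the 2 genes called by edgeR, *Gpd2* and *Dio1*, and grey points were not called.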

How the data were processed

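Livers of 3 WT and 3 *Fmo5*-/- mice gave 1 library of single reads each. The authors mapped adapter-clipped reads to mm10 with STAR 2.6.0c and deposited the raw counts per gene that STAR gave, for both strands together (used here) and for each strand alone. They also deposited a table from DESeq2 1.22.2 with a signal per library, the raw count divided by a size factor, used here only to match symbols and to check the counts, and with their own fold changes, standard errors, test statistics and p-values, which were not used. The annotation release is not given in the sources used here. Positions and exon lengths are from GENCODE vM21, which held 54409 of 54446 identifiers.

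Counts were filtered with filterByExpr (minimum count 10), scaled by TMM and tested with the robust quasi-likelihood test of edgeR 4.0.16 in R 4.3.3, by genotype alone, with Benjamini-Hochberg adjustment over 16734 genes. Normalized counts are counts divided by scaled library size, times the mean size. Intervals cover 95%. Steps were tested on simulated data. Alternatives were DESeq2 1.42.0, RLE factors, scaling without the 20 most abundant genes, no filter, removal of genes under 500 ahead of the fit, reads of 1 strand, and leaving out each library. Correlated deviations used log2 counts with 0.5 added.

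The 10 genes and all lists were chosen with earlier results of these data known. Named beside them are *Fmo5*, every called gene of a related list plus its 2 largest fold changes at a mean count of at least 500, the 5 genes most correlated with the 10, and, chosen after their values were seen, *Gpd1*, *Slc2a2*, *Fgf21*, *Cidec*, *Hr*, *Klf9*, *Thra*, *Thrb*, *Igfbp1*, *Pck1* and the marker genes. Also chosen after their values were seen were *Nr1h2*, *Me2*, *Scd2*, *Arntl*, *Nr1d1* and *Clock*. The values of 1 gene of a related list are not reported here. The labels give no separate litters or extraction days, so p-values measure the spread between these mice. The sample numbers in the labels fall in separate blocks for WT and *Fmo5*-/- mice, and what the numbering follows is not stated. Whatever it follows cannot be told apart from genotype. Reads that mapped to several places were not counted, which can lower counts of genes with near-identical copies.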

Additional observations from a re-analysis of the deposited data

How the results depend on the processing

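No paired analysis was possible because the labels give the mice no replicate numbers that link the genotypes. The count of genes called (126, with 83 lower and 43 higher) was 744, 528 and 216 with DESeq2, and 981, 704 and 277 without a filter on low counts. With genes under 500 counts removed ahead of fitting it was 53, of which 23 were lower, 43.4% of calls against 65.9% in the reported fit, and the median log2 fold change was 0.0018 over the 7820 genes then fitted, compared with -0.06 over the 7819 of the reported fit. Leaving out 1 mouse gave 14 to 259 genes, 7 to 107 lower and 7 to 152 higher, with the fewest without the first *Fmo5*-/- mouse and the most without the third. The cause was not tested.

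Without a filter on low counts edgeR also called 3 of the regulators of SREBP and ChREBP, 5 of their other targets, and 2 in each of the other 6 related lists. Leaving out 1 mouse gave 0 to 3 called among the other targets, 0 to 1 among the clock genes, 0 to 2 in the thyroid list and 0 in the other 5 lists.

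Of the 10 lipogenic genes, 3 were called with DESeq2 (log2 fold changes of -0.68 for *Elovl6*, -1.32 for *Me1* and -0.60 for *Thrsp*) and 2 without a filter (-0.68 for *Elovl6*, adjusted p = 5.63e-09, and -0.60 for *Thrsp*, adjusted p = 7.14e-07, both from edgeR), where *Me1* had an edgeR adjusted p of 0.241. Leaving out 1 mouse gave 0 to 1 called, the 1 being *Thrsp* without the third *Fmo5*-/- mouse (edgeR adjusted p = 0.0296). The log2 fold changes then ranged from -1.57 to -1.03 for *Me1*, -0.89 to -0.50 for *Elovl6*, -0.75 to -0.47 for *Thrsp*, -0.67 to -0.17 for *Fasn*, -0.84 to -0.17 for *Scd1* and -0.45 to -0.13 for *Acaca*. They changed sign in *Srebf1* (-0.22 to 0.11), *Mlxipl* (-0.19 to 0.022), *Acly* (-0.35 to 0.077) and *Acacb* (-0.20 to 0.23). With those genes removed ahead, *Srebf1* was at 0.0045. The median of the 10 ranged from -0.50 to -0.15. Over all 12 alternatives *Me1*, *Elovl6* and *Thrsp* were lower in *Fmo5*-/- mice, with adjusted p from 0.00629 to 0.254, 5.63e-09 to 0.196 and 7.14e-07 to 0.211.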
